A study of Mus musculus with 13 samples.

Results

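miR-451a and miR-486-5p, a pair of small RNAs best known from red blood cells, were followed in exosomes (small vesicles released by cells) from mouse plasma. They are 2 of the 68 miRNA probes of the panel and were chosen by name alone. Each had a single probe, and both probes had a signal above 0 in all 13 mice. Cecal ligation and puncture (CLP), a model of sepsis made by tying off and piercing the cecum to let gut bacteria into the abdomen, was performed on 8 mice, and 5 sham mice served as controls. Both groups were male wild-type (WT) C57BL/6J animals sampled 24 hours post-surgery, with no transgene or drug named for either. The sources used here give no age, illness severity, haemolysis or red cell number. The samples are numbered and the design counts mice, so each was taken as 1 mouse, and p-values cover only the spread between these samples.

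A miRNA guides an Argonaute protein to messenger RNAs through its seed, the bases near its 5′ end, and lowers their output. miR-451a is among the dominant miRNAs of maturing red cells. It is transcribed with miR-144 under the erythroid factor GATA1, and its hairpin is cut by AGO2 itself and not by Dicer. miR-486-5p comes from within Ank1, the gene of the red cell membrane protein ankyrin-1, and is made in muscle as well. Because red cells hold so much of both, their level in plasma is commonly read as a sign of red cell RNA.

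The mouse sequence of miR-451a is shown because its maturation can be read from it. The probes carry human names and probe sequences were not used here, so mouse sequences were matched by name. Of 68 probes, 48 had a mouse mature miRNA of the same name in the reference sequences used here (RefSeq, GRCm38.p6). Entries on a single chromosome, not that of Mir451a, were left out before this count. The reference was not complete, so an unmatched probe may still have a mouse miRNA of its name. Capitals mark the seed (bases 2 to 8) in the mature sequences. miR-486-5p and miR-185-5p, both of the erythroid list used below, had no mature entry in this reference, so their sequences are not shown. Sequences are given for miR-451a, for miR-16-5p and miR-92a-3p of the same list, and for miR-23a-3p, the usual partner of miR-451a in the red cell ratio.
miR-451a: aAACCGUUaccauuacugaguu
miR-16-5p: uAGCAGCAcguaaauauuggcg
miR-92a-3p: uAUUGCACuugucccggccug
miR-23a-3p: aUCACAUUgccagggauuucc
The seeds of these 4 differ, and 0 of the other matched probes shared the miR-451a seed, so no family member among the matched probes was read beside it. The seeds of unmatched probes, miR-486-5p among them, were not checked. Mir451a lies on chromosome 11, plus strand, and its hairpin occupies chr11:78073170-78073241. In the hairpin below, capitals mark the mature miRNA.
miR-451a hairpin: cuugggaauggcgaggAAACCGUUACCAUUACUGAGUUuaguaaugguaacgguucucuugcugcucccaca
The mature part runs from base 17 to base 38 of 72 and ends 2 bases past the middle of the hairpin. Of 47 panel miRNAs with a mature and a hairpin sequence, miR-451a was the 1 whose mature sequence crossed the middle of its annotated hairpin. The Mir144 hairpin ends 99 bases upstream, and miR-144 was not on the panel. The G+C content of miR-451a was 36.4%, against a median of 45.5% among matched probes, and 3 of them were lower.

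Both miRNAs have to be read against a panel that was brighter as a whole after CLP. The summed raw fluorescence ran from 33043 to 74684.5 units in CLP mice and from 10598 to 45121 units in sham mice. In the fit of the unscaled signal, 60 of 66 miRNAs were called higher in CLP (90.9%), with a median change of 1.87 log2 units, and 100% had an estimate above 0. Sham mice 1 and 4 were the weakest. The sources used here give neither RNA input nor plasma volume. In a bulk sample such as this, fewer contributing cells and less RNA per cell cannot be told apart.

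The raw signal of miR-451a was higher on average in CLP mice, but the difference did not pass. It had 3254 (mouse 7), 4427 (median) and 5149.6 units (mouse 2) at the lowest, middle and highest of the CLP mice, against 1845, 4092, 2629, 3161 and 4535 units in sham mice 1 to 5. The groups overlapped, with 2 CLP mice above every sham mouse and 3 sham mice below every CLP mouse. The mean was 4227 ± 622 units in CLP mice (SD, n = 8) and 3252 ± 1087 units in sham mice (SD, n = 5). The change was 0.44 log2 units (SE 0.38, 95% confidence interval -0.36 to 1.23), which did not pass (limma adjusted p = 0.272). The limma SE draws on the spread of the whole panel. An exact permutation test on the values of miR-451a alone gave p = 0.0466, adjusted 0.0513, just short of the threshold. The change was the second lowest of 66. The limma interval lies below the panel median of 1.87.

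miR-486-5p rose in raw signal. It had 1814 (mouse 8), 3322 (median) and 4265 units (mouse 4) across CLP mice, against 662, 1671, 2128, 895 and 3055 units in sham mice 1 to 5. CLP mouse 8 lay within the sham range, and the other 7 CLP mice lay above every sham mouse. The mean was 3363 ± 734 units in CLP mice (SD, n = 8) and 1682 ± 967 units in sham mice (SD, n = 5), and the fitted change was 2.26-fold (log2 1.17, SE 0.43, interval 0.29 to 2.06, limma adjusted p = 0.0132). It ranked 7th from the lowest of 66, so this rise too was smaller than that of most miRNAs. Without the 2 weakest sham mice the change was 0.56 and no longer passed (limma adjusted p = 0.183), while that of miR-451a was 0.20.

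**Figure D1:**
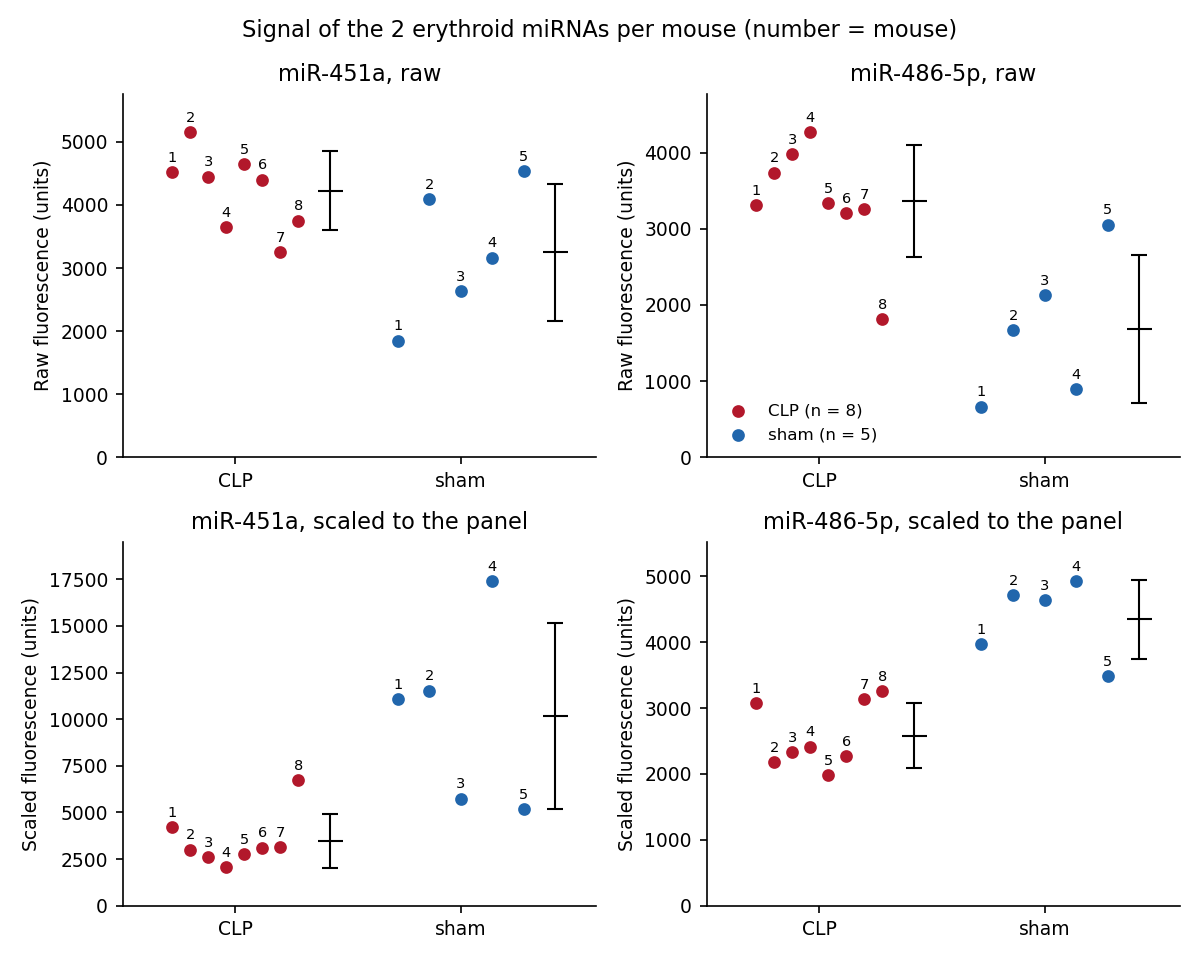
Fluorescence of miR-451a (left) and miR-486-5p (right) in each mouse, raw (top) and scaled to the panel (bottom). Points are mice with their numbers, and bars give the mean ± SD of 8 CLP and 5 sham mice. Raw miR-451a overlaps between the groups, raw miR-486-5p is higher in all CLP mice but mouse 8 than in any sham mouse, and scaled miR-486-5p is lower in every CLP mouse than in every sham mouse.

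The raw signals also differed in how much they varied among mice of a group. The coefficient of variation of miR-451a was 14.7% in CLP and 33.4% in sham mice. That of miR-486-5p was 21.8% in CLP and 57.5% in sham mice, near that of the summed panel signal (24.8% in CLP and 57.2% in sham). On the raw signal miR-451a was thus the steadier of the pair in both groups, although no test of this was made. Scaled to the panel, the order was the reverse. The coefficient of variation was then 42.2% in CLP and 49.0% in sham mice for miR-451a, against 19.3% and 13.8% for miR-486-5p.

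Relative to the panel, both miRNAs fell. Signals were divided, mouse by mouse, by the geometric mean over the 60 miRNAs with a signal above 0 in every mouse, so values speak of composition and not of amount. Of 65 miRNAs tested, 13 were called lower in CLP (20%) and 7 higher (10.8%). The median change was 0.10 log2 units. Scaled miR-451a had 2064 (mouse 4), 3055 (median) and 6731 units (mouse 8) in CLP mice, against 11064, 11530.2, 5734, 17412 and 5174 units in sham mice 1 to 5. CLP mouse 8 lay above sham mice 3 and 5, and the other 7 CLP mice lay below every sham mouse. The mean was 3451 ± 1457.5 units in CLP mice (SD, n = 8) and 10183 ± 4993 units in sham mice (SD, n = 5), and the fitted change of -1.50 log2 units had an interval from -2.18 to -0.83 (limma adjusted p = 0.0044).

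Scaled miR-486-5p changed less but separated the groups fully. It had 1977 (mouse 5), 2373 (median) and 3258 units (mouse 8) in CLP mice, against 3970.3, 4709, 4641, 4929 and 3486 units in sham mice 1 to 5. Every CLP mouse lay below every sham mouse, which held for 3 of the 65 miRNAs (4.62%). The mean was 2579.7 ± 497 units in CLP mice (SD, n = 8) and 4347 ± 599.9 units in sham mice (SD, n = 5), with a fitted change of -0.76 (SE 0.17, interval -1.13 to -0.40, limma adjusted p = 0.00578). In order of change, miR-451a was second and miR-486-5p 6th from the lowest of 65.

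**Figure D2:**
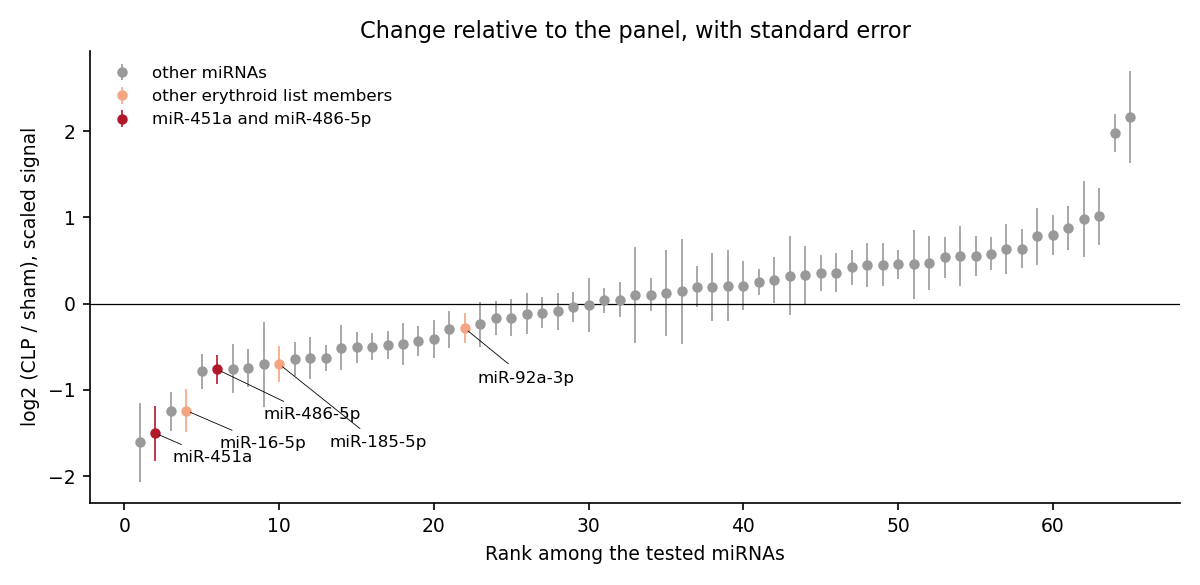
Change relative to the panel of the 65 tested miRNAs, ordered from lowest to highest, as log2 of CLP over sham with its standard error. miR-451a (-1.50) and miR-486-5p (-0.76) lie near the low end, as do miR-16-5p and miR-185-5p of the erythroid list, while miR-92a-3p lies nearer 0.

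Both calls held with 4 other single-factor scalings and ended with quantile normalization. The reference without the erythroid list, from which both miRNAs were removed, gave -1.59 for miR-451a and -0.85 for miR-486-5p (limma adjusted p = 0.00354 for each). The authors' values, which are the raw values times 1 factor per sample, gave -1.29 for miR-451a (limma adjusted p = 0.00368). They gave -0.55 for miR-486-5p (limma adjusted p = 0.0187), and every CLP mouse again lay below every sham mouse, as for 3 of 65 miRNAs (4.62%). These scalings shift all miRNAs of a mouse alike, so they are not separate checks. Quantile normalization gave -0.22 for miR-451a (limma adjusted p = 0.281) and -0.17 for miR-486-5p (limma adjusted p = 0.274). That method sets a value from the rank within the mouse. miR-451a held rank 1 or 2 in brightness in every mouse except CLP mouse 4, where it held rank 4. miR-486-5p held rank 3 in every sham mouse and ranks 3 to 5 in CLP mice, so neither could move far. Over all alternatives of the scaled fit, the limma or permutation adjusted p ranged from 0.00112 to 0.281 for miR-451a and from 0.00282 to 0.274 for miR-486-5p.

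**Figure D3:**
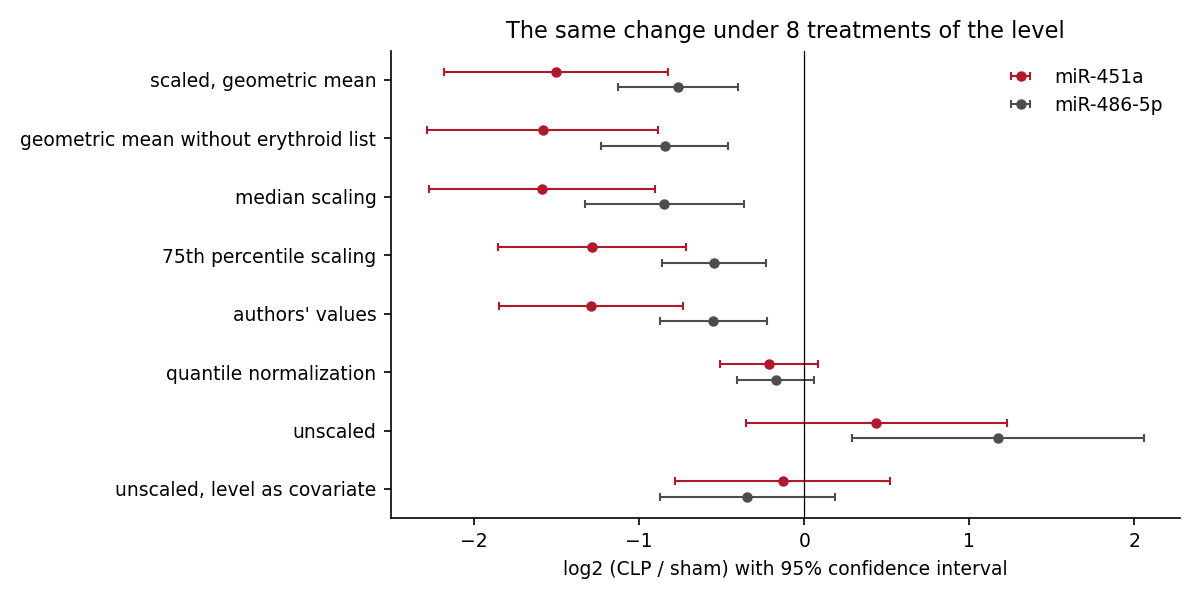
Change of miR-451a and miR-486-5p as log2 of CLP over sham with its 95% confidence interval, under 8 treatments of the signal level of a mouse. Both are below 0 with an interval that excludes 0 under the 5 single-factor scalings, while with quantile normalization and with the level as a covariate both intervals include 0, and unscaled both estimates are above 0.

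As a share of the summed raw signal, both miRNAs were lower in CLP. A share is the raw signal divided by 1 number per mouse, so it is not a separate check of the scaled result. miR-451a made up 4.93% (mouse 4), 7.08% (median) and 11.3% (mouse 8) in CLP mice, against 17.4%, 17.4%, 10.3%, 23.1% and 10.1% in sham mice 1 to 5. CLP mouse 8 was the 1 CLP mouse within the sham range. The mean share was 7.37% ± 1.92 in CLP mice (SD, n = 8) and 15.7% ± 5.52 in sham mice (SD, n = 5), a difference of -8.30 percentage points (p = 0.00233 by exact two-sided permutation, and 0.0117 adjusted over 5 per-mouse measures by Benjamini-Hochberg). A share of fluorescence is not a share of molecules, since probes differ in brightness.

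The share of miR-486-5p was 4.79% (mouse 5), 5.41% (median) and 6.92% (mouse 7) in CLP mice, against 6.25%, 7.09%, 8.37%, 6.55% and 6.77% in sham mice 1 to 5. Here 6 CLP mice lay below every sham mouse, and CLP mice 1 and 7 lay within the sham range. The mean was 5.64% ± 0.673 in CLP mice (SD, n = 8) and 7.01% ± 0.823 in sham mice (SD, n = 5), a difference of -1.37 percentage points (exact permutation p = 0.00777, adjusted 0.0181). The pair together made up 13.01% ± 2.07 of the signal in CLP mice (SD, n = 8) and 22.7% ± 5.09 in sham mice (SD, n = 5). Most of that difference lay in miR-451a, as the 2 differences above show.

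The balance within the pair shifted toward miR-486-5p in CLP mice. The ratio of miR-486-5p to miR-451a was 0.484 (mouse 8), 0.73 (median) and 1.17 (mouse 4) in CLP mice, against 0.359, 0.408, 0.809, 0.283 and 0.674 in sham mice 1 to 5. The groups overlapped: 3 CLP mice lay above every sham mouse, and 3 sham mice lay below every CLP mouse. The mean log2 ratio was -0.35 ± 0.38 in CLP mice (SD, n = 8) and -1.09 ± 0.63 in sham mice (SD, n = 5). That is a 1.67-fold higher ratio (exact two-sided permutation p = 0.0233, adjusted 0.0291). The ratio was higher than the sham mean in 8 of 8 CLP mice on the log2 scale. On the linear scale this held for 7 of 8, with mouse 8 below the sham mean of 0.507. The call ended when any of CLP mice 3, 4 and 7 or sham mice 1, 2 and 4 was left out (log2 difference 0.56 to 0.71, permutation adjusted p = 0.0521 to 0.0758). Without both sham mice 1 and 4 the difference was 0.37 (permutation adjusted p = 0.280).

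**Figure D4:**
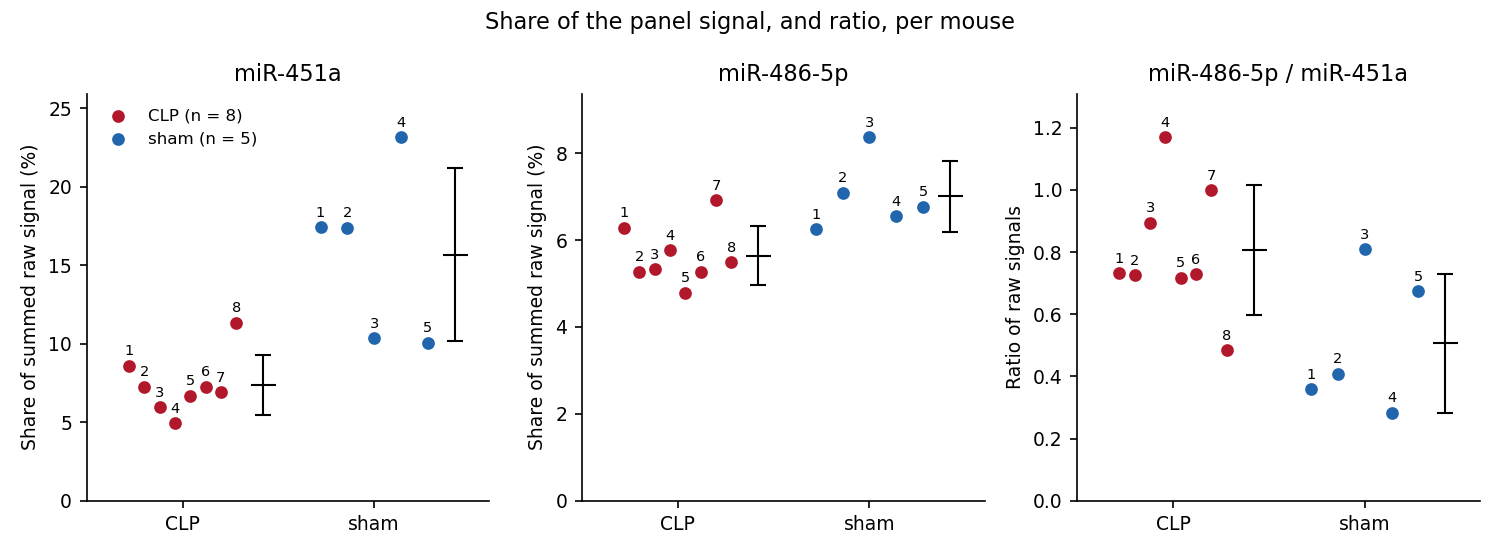
Share of the summed raw signal taken by miR-451a and by miR-486-5p (percent), and the ratio of miR-486-5p to miR-451a, in each mouse. Points are mice with their numbers, and bars give the mean ± SD of 8 CLP and 5 sham mice. Shares are lower in CLP, at 7.37% against 15.7% for miR-451a and 5.64% against 7.01% for miR-486-5p, and the ratio is higher with overlap.

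miR-23a-3p, a miRNA that is scarce in red cells, is the common denominator for reading red cell RNA in plasma. The ratio of miR-486-5p to miR-23a-3p was 1.24 (mouse 5), 1.47 (median) and 2.41 (mouse 7) in CLP mice, against 2.05, 1.77, 1.95, 2.50 and 1.44 in sham mice 1 to 5. The groups overlapped, and the difference of -0.26 in mean log2 ratio did not pass (0.67 ± 0.35 in CLP, SD, n = 8, and 0.93 ± 0.29 in sham, SD, n = 5; exact permutation p = 0.176). For miR-451a over miR-23a-3p, the ratio was 2.01-fold lower in CLP (exact permutation p = 0.0109, adjusted 0.0181), but the log2 difference was -0.73 without sham mouse 4 (adjusted permutation p = 0.0572) and -0.47 without sham mice 1 and 4 (0.232 by the same test). Sham mouse 4 had the highest miR-451a to miR-23a-3p ratio of all mice, at 8.82, against 3.09 in the highest CLP mouse. Both ratios are read against miR-23a-3p, which itself had a relative change of -0.50.

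The raw signal of miR-451a followed the signal level of a mouse only weakly. Within groups, its log2 signal had a slope of 0.28 (SE 0.12) on the log2 geometric mean of the other miRNAs, the lowest slope of the 60 miRNAs above 0 in every mouse, whose median was 0.97. miR-16-5p, picked as the nearest to it in mouse-to-mouse pattern, had a slope of 0.42 (SE 0.06), 0.23 in CLP mice and 0.54 in sham mice. That choice itself favours a similar slope, so the likeness is not a separate result. The slope of miR-451a was 0.17 in CLP mice and 0.35 in sham mice. miR-486-5p followed the level more closely, with a slope of 0.77 (SE 0.08), 19th from the lowest, and with 0.59 in CLP and 0.88 in sham mice. Within a group, a slope below 1 goes with a scaled value that is lower in mice of higher level.

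Mice of adjoining level can be set side by side, as single animals and with no test. CLP mouse 8 had a log2 level of 7.11, between sham mice 3 (6.83) and 5 (7.77). Its scaled miR-451a of 6731 units exceeded the 5734 units of sham mouse 3 and the 5174 units of sham mouse 5. Its scaled miR-486-5p of 3258 units was below the 4641 units of sham mouse 3 and the 3486 units of sham mouse 5. CLP mouse 7, at a level of 8.03, had 3137 units of scaled miR-451a and 3136 units of scaled miR-486-5p, both below sham mouse 5. CLP mouse 1, next in level at 8.08, had 4207 units of scaled miR-451a and 3077 units of scaled miR-486-5p, also below sham mouse 5. Among sham mice 3 and 5 and CLP mice 7 and 8, scaled miR-451a was highest in CLP mouse 8 and lowest in CLP mouse 7. Scaled miR-486-5p was lower in both of these CLP mice than in either sham mouse. Any choice of mice would give this, since every CLP mouse lay below every sham mouse. These values of single mice do not show the part of the level for either miRNA, which was not tested.

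With the level as a covariate in the unscaled fit, 8 of 66 miRNAs were called (12.1%), and neither of the pair was. The level in this fit was the log2 geometric mean of all 60 miRNAs above 0 in every mouse, so each of the pair is part of its own covariate. In the slopes and single-mouse levels above, the pair was left out. miR-451a was at -0.13 (SE 0.30, interval -0.78 to 0.52, limma adjusted p = 0.795), and miR-486-5p was at -0.34 (SE 0.25, interval -0.88 to 0.19, limma adjusted p = 0.455). The level differed between the groups, since 7 of 8 CLP mice lay above every sham mouse, so level and surgery are largely confounded in this fit. The part of the level in the relative fall of either miRNA cannot be told apart from that of CLP beyond these values.

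Among the 8 CLP mice, 4 relations were computed on the log2 scale. miR-486-5p followed the level (Pearson r = 0.92, exact permutation p = 0.00241, adjusted 0.00962; Spearman rho = 0.90, exact permutation p = 0.00456, adjusted 0.0183). The relation rests on mice 7 and 8, the 2 farthest from the median level: without them r was 0.64 (exact permutation p = 0.151, n = 6). miR-451a had r = 0.47 with the level (exact permutation p = 0.256, adjusted 0.341; rho = 0.33, exact permutation p = 0.428, adjusted 0.571) and -0.12 without the same 2 mice. miR-486-5p and miR-451a had r = 0.26 with each other (exact permutation p = 0.568, adjusted 0.568; rho = 0.24, exact permutation p = 0.582, adjusted 0.582). Without mice 4 and 7, r was 0.85 (exact permutation p = 0.0514, n = 6). The ratio of miR-486-5p to miR-451a had r = 0.64 with the level (exact permutation p = 0.0946, adjusted 0.189; rho = 0.36, exact permutation p = 0.389, adjusted 0.571), and 0.44 without mice 7 and 8. These relations were not tested in the 5 sham mice. No mouse-to-mouse relation within CLP between the 2 erythroid miRNAs was thus detectable with 8 mice.

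**Figure D5:**
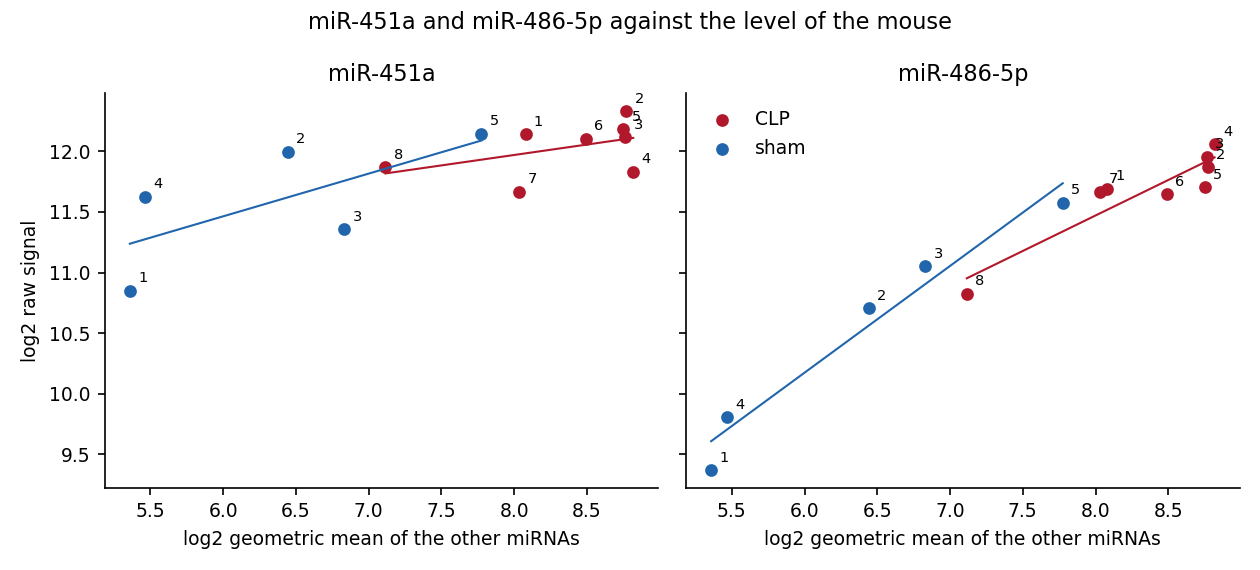
Log2 raw signal of miR-451a (left) and miR-486-5p (right) against the log2 geometric mean of the 58 other miRNAs above 0 in every mouse. Points are mice with their numbers and lines are least-squares fits within CLP and sham. The miR-451a lines are shallow (0.17 in CLP and 0.35 in sham) and those of miR-486-5p steeper (0.59 in CLP and 0.88 in sham).

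The miRNAs whose mouse-to-mouse pattern lay nearest to each of the pair were found by the within-group SD of the log2 ratio to it over the 13 mice, a measure free of scaling. For miR-451a the nearest were miR-16-5p (SD 0.29), let-7g-5p (0.395), miR-17-5p (0.404), miR-15a-5p (0.405) and let-7e-5p (0.415), against a median of 0.66 over 59 miRNAs. For miR-486-5p they were miR-29b-3p (0.266), miR-93-5p (0.274), miR-29a-3p (0.278), miR-92a-3p (0.28) and miR-320a (0.281), against a median of 0.48. The 5 nearest to each share no miRNA, but this rests on the number taken: let-7g-5p (0.284), miR-16-5p (0.291) and miR-15a-5p (0.293), all among the 5 nearest to miR-451a, ranked 6th, 8th and 9th for miR-486-5p. miR-16-5p lay as near to miR-486-5p as to miR-451a. At an SD of 0.49, miR-486-5p ranked 10th of 59 in nearness to miR-451a, and miR-451a ranked 32nd of 59 in nearness to miR-486-5p. miR-16-5p is likewise abundant in red cells, and miR-93-5p and miR-92a-3p derive from related polycistronic clusters.

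Set against each other miRNA in turn, the ratio to miR-451a was higher in CLP for 58 of 59 miRNAs, with miR-205-5p the exception. The ratio to miR-486-5p was higher in CLP for 54 of 59, the exceptions being miR-451a, miR-16-5p, miR-17-5p, miR-744-5p and miR-205-5p (miR-205-5p and miR-744-5p lie outside the naming rule and were picked with their values known).

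Other miRNAs of the erythroid list were read beside the pair. Of 10 on the list, 5 were on the panel, the pair included. The list count and median are thus not separate from the values of the pair. The list median of -0.76, against 0.10 over the panel, is that of miR-486-5p itself. Of the 5, 4 fell relative to the panel (20% of the panel fell) and none rose (10.8% of the panel rose). Besides the pair, these were miR-16-5p (-1.24, SE 0.25, limma adjusted p = 0.00368) and miR-185-5p (-0.70, SE 0.21, limma adjusted p = 0.0224). miR-92a-3p, from a polycistronic cluster, was at -0.29 (limma adjusted p = 0.205). On the unscaled signal all 5 had estimates above 0, and 3 rose, namely miR-486-5p, miR-92a-3p and miR-185-5p, where 90.9% of the panel rose. The list median of 1.17, again that of miR-486-5p, stood against 1.87 over the panel. The list's count in the scaled fit was 0 of 5 with quantile normalization and 3 or 4 under the other alternatives.

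Markers of other cells that shed vesicles into plasma were also brighter in CLP mice before scaling. The summed raw signal of the 4 platelet markers on the panel ran from 4633 to 10818 units in CLP and from 1058 to 6858 units in sham mice. That of 4 myeloid markers ran from 2559 to 5289.8 units in CLP and from 401 to 2706 units in sham mice, and that of 4 lymphoid markers from 2913 to 5669.9 units in CLP and from 362 to 2338 units in sham mice. The sum of the 5 erythroid markers ran from 10852 to 17480.5 units in CLP and from 5009 to 14674 units in sham mice, and overlapped. The 2 endothelial markers summed to between 985 and 2317 units in CLP and between 163 and 651 units in sham mice. The 3 hepatocyte markers, 1 with an empty cell, summed to between 228 and 2531.5 units in CLP and between 36.5 and 890 units in sham mice. The lymphoid and endothelial sums thus did not overlap between the groups, and the platelet, myeloid, erythroid and hepatocyte sums did. Since 90.9% of the panel was called higher unscaled, and the share of all probes without overlap was not set beside these sums, this says nothing particular about these cells. The part of these cells in the relative fall of miR-451a and miR-486-5p was not tested.

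Relative to the panel, of which 10.8% were called higher and 20% lower, the platelet list had 1 of 4 higher and 2 lower (median -0.29), the myeloid list 1 of 4 higher and 0 lower (0.36), and the lymphoid list 0 of 4 called (0.36) by limma. The endothelial list had 1 of 2 higher (0.32) and the hepatocyte list 0 of 3 called (-0.24). The lists share members and are not separate: miR-126-3p was the higher call of both the platelet and the endothelial list. miR-223-3p stands in both the platelet and the myeloid list. Without adjustment, 2 of the 4 lymphoid and 2 of the 3 hepatocyte markers had p under 0.05. No member of these lists was at 0 in any mouse, but miR-122-5p of the hepatocyte list had an empty cell in sham mouse 4 and was fitted without it. The muscle list, which bears on miR-486-5p because muscle makes it too, had 0 of 5 markers on the panel.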

How the data were processed

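Plasma exosomal RNA of 13 mice was measured on 68 FirePlex probes (hydrogel particles, adapter ligation and RT-PCR with a biotinylated primer, per the labels' protocols). The authors deposited raw fluorescence intensity, unscaled between samples, with 7 cells at 0 and 1 empty cell, and a second intensity table in which, tested on the values, each sample is a raw column multiplied by a constant (0.45 to 4.31). The sources used here give no scanner, background step or choice of constant. In the second table the columns of CLP 6 and 7 match raw columns 7 and 6. Single-mouse values follow the raw labels, and group tests are unaffected.

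Signals were divided, mouse by mouse, by the geometric mean over the 60 miRNAs above 0 in every mouse, and multiplied by the mean of these levels. Values were floored at the 5th percentile of positive values (3.09 units scaled, 2.10 raw), log2 was taken, and miRNAs above the floor in at least 5 mice were tested, 65 scaled and 66 unscaled. Near-floor changes are understated, but both miRNAs lie far above it. limma 3.58.1 in R 4.3.3 (lmFit, eBayes, two-sided, Benjamini-Hochberg over the panel, threshold 0.05) gave every adjusted p of a single miRNA unless a permutation test is named. Shares and ratios were compared by exact two-sided permutation of means over 1287 splits (smallest p 0.000777). Other steps used Python 3.11.15 (scipy 1.17.1, numpy 2.4.6, matplotlib 3.10.9, pandas 2.3.3). The fit was tested on simulated data. The number of mice limits precision.

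The erythroid, platelet, myeloid, lymphoid, endothelial, hepatocyte and muscle lists, the miRNAs named (the pair, miR-23a-3p, the erythroid list, the 5 nearest to each, examples from the other lists) and the alternatives were chosen with earlier results of these data known. Alternatives were other scalings, floors, filters, a permutation test, a replicate block, the level as a covariate, other denominators, and mice left out.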

Additional observations from a re-analysis of the deposited data

Results flagged for a closer look

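The raw signal of miR-486-5p in CLP mouse 8, 1814 units, stood apart from the other CLP mice: its gap to the next lowest was 0.667 of the group's range on the log2 scale, above the 5% limit of Dixon's test for 8 values (0.526). The same mouse had the lowest summed panel signal of the CLP group, and its scaled miR-486-5p was not apart by this test. Dixon's test was run on 18 groups of values, and chance flags about 1 in 20, so 1 such value is near what chance gives.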

How the results depend on the processing

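The relative fall of both miRNAs kept its direction under all alternatives and passed in 10 of 11 (13 of 13 with 1 mouse left out); quantile normalization ended both (-0.22 and -0.17), with 0 erythroid calls and 11 miRNAs called (5 higher, 6 lower) in place of 20 (7 and 13). Other splits were 13 and 6 with the authors' values and the 75th percentile, 3 and 13 with the median, and 5 and 16 both without the erythroid list in the reference and at 10 or more raw units. With the replicate block 6 were called (2 and 4), miR-451a at -1.69 and miR-486-5p at -0.86 among them. The labels do not say that numbers pair mice, and deviations of same-numbered mice correlated at -0.34 to 0.30, with 2 of 10 correlating best with their own number. The level as a covariate was counted under the unscaled fit and not among those 11. It turned the unscaled changes to -0.13 and -0.34, with neither miRNA called (limma adjusted p = 0.795 and 0.455). That fit gave 8 calls (4 higher, 4 lower) in place of 60, all higher. Without the 2 weakest sham mice 36 were called unscaled, unscaled miR-486-5p was at 0.56, the ratio of miR-486-5p to miR-451a at 0.37, and that of miR-451a to miR-23a-3p at -0.47. With 1 mouse left out, these ratios ran from 0.56 to 0.94 and from -1.24 to -0.73, and 11 (without sham mouse 2) to 23 miRNAs were called in the scaled fit. Both shares passed under all alternatives. Without the 2 CLP mice farthest from the median level, picked from measured values, miR-486-5p with level had r = 0.64 and miR-451a with level -0.12. The cause of these differences was not tested.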
